A study of Rattus norvegicus with 2 samples.

Results

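The genes described here encode the machinery of oxidative phosphorylation (OXPHOS). They were the probes whose gene symbol starts with Nduf, Uqcr, Atp5 or Cox4 to Cox8, or is that of a succinate dehydrogenase subunit (Sdha to Sdhd), cytochrome c1 (Cyc1) or cytochrome c (Cycs). The rule found 62 probes of 53 genes, among 10767 probes of 8898 genes that could be named and 41009 probes in all. A current RefSeq table of the rat holds 120 protein coding genes under the same rule, so that the other 67 were not analysed here. Among them are Sdhb, Cyc1, Cox7c, Ndufs3 and Ndufaf1, a complex I assembly factor that the study reports as its most down-regulated gene. The counts of called members do not cover these genes. By complex, the 53 genes were 13 of complex I, 3 of its assembly, 3 of complex II, 5 of complex III, 1 for cytochrome c, 13 of complex IV and 15 of complex V.

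Oxidative phosphorylation takes place at the inner membrane of mitochondria. Complexes I (NADH dehydrogenase) and II (succinate dehydrogenase) pass electrons to ubiquinone, complex III (cytochrome bc1) hands them on to cytochrome c, and complex IV (cytochrome c oxidase) reduces oxygen with them. Complexes I, III and IV pump protons as they do so, and complex V (ATP synthase) lets the protons flow back and makes ATP. In blood, mitochondria are found in white cells, platelets and young red cells, while the mature red cell has lost them and lives on glycolysis.

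The study compared whole blood of rats given lavender oil (LO), the essential oil of Lavandula angustifolia used in aromatherapy, with that of control rats, to look for blood genes that respond to LO taken by mouth. The LO group received 5 mg/kg in 10% ethanol and the control group 10% ethanol alone (0 mg/kg), into the stomach once a day for 13 days, with blood taken on day 14. Each group was 6 male rats, 7 weeks old, so that both groups shared the ethanol, the ether anaesthesia and the sex. The strain is Fischer, F334 in the study's methods, F334 in the protocols of the labels and Wistar in another label field, and the blood came from the heart (the labels add the portal vein). Total RNA from the 6 animals was pooled per group, and both pools were hybridised together to 2 Agilent rat arrays, with LO in Cy5 (red dye) and control in Cy3 (green dye) on array 1 and the dyes exchanged on array 2. Both arrays thus carry the same LO pool and the same control pool, with no separate animals, and no difference given here has a biological replicate. Differences in the number of cells of a type and in the RNA per cell cannot be told apart in such pools.

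To show the sequence that surrounds the start of such genes, promoter windows (250 bases before to 50 after the start) were taken from RefSeq for the GRCr8 build, by gene symbol. A window was found for 47 of the 53 genes, and 4 short motifs were searched on both strands. They are the core of the site of NRF1, the nuclear respiratory factor that drives many OXPHOS genes (GCATGCGC), an ETS site of the kind read by GABP (CCGGAAG), a YY1 site (AAGATGGC) and the CCAAT box (CCAAT). The 4 windows below were chosen after the values had been seen. Atp5me is one of 3 genes with 3 of the 4 motifs, Cycs holds the NRF1 core, Cox4i1 has 2 ETS matches, and Cox6a2 is the heart and muscle form of a complex IV subunit. The windows are chr14:1464610-1464909 (+ strand) for Atp5me, chr4:80984718-80985017 (- strand) for Cycs, chr19:65630133-65630432 (+ strand) for Cox4i1 and chr1:192219667-192219966 (- strand) for Cox6a2. Capitals mark the matches.
Atp5me: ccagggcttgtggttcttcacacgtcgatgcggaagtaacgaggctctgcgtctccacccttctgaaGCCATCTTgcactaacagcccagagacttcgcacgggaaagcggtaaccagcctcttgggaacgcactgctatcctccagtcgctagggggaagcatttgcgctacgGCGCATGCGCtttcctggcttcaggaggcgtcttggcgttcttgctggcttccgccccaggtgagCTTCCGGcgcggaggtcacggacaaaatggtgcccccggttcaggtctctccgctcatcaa
Cycs: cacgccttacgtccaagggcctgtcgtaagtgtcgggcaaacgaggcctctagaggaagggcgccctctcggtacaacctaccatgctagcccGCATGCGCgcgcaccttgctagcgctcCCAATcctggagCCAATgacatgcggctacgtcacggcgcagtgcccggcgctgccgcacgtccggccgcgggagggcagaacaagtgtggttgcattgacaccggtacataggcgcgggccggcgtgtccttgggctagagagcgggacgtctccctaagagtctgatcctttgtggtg
Cox4i1: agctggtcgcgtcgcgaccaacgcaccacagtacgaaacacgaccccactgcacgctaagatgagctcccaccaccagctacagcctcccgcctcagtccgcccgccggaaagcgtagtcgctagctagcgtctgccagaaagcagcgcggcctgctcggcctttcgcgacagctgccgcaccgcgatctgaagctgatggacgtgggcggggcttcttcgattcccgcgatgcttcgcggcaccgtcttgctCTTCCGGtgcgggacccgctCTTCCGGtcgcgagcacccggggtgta
Cox6a2: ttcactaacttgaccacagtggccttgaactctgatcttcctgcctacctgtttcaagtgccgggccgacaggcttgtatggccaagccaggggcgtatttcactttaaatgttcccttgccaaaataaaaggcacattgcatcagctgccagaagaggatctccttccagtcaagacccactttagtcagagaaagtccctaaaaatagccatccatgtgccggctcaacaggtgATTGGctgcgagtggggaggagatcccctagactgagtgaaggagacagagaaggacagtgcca
In Atp5me the 2 matches of the NRF1 core lie on opposite strands and share 6 bases. The NRF1 core stood in 9 of the 47 windows (19.1%) and in 2.47% of all 33469 promoter windows of the table, the ETS site in 14 (29.8%, against 8.75%) and the YY1 site in 8 (17%, against 3.17%). The CCAAT box stood in 17 windows (36.2%), against 37.5% of all. The 53 genes are all protein coding, while no filter on gene type was applied to the windows of the table. Whether these shares compare like genes was not tested. At least 1 of the NRF1, ETS and YY1 motifs was present in 24 windows, and 12 held none of the 4 motifs. These combined counts were made for the members only, as was the count of genes with 3 of the 4 motifs. They cannot be set against all windows. A match is a run of letters and not a measured site, and a window without one says nothing of the factor.

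Most of the OXPHOS transcripts gave signals above background in these blood samples, and their signals were close to equal in the LO and the control pool. Of the 62 probes, 54 probes of 48 genes were well above background in both pools on both arrays (4 channels, called detected from here on), which is 87.1% of them, against 49.2% of all named probes and 37.5% of all probes. None of the 62 was flagged or saturated. The signal is the background-subtracted and dye-normalized brightness of a probe, and the median over all probes lay between 53.6 and 62.8 in the 4 channels. It depends on the probe as well as on the transcript, so that signals are set between pools and never between genes.

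From the 2 log2 LO/control ratios of a probe, 2 components were taken. The LO part is their mean and holds what follows the RNA pool. The dye part is the ratio of array 1 less that mean, positive towards Cy5. It holds what follows the dye together with any other gap between the 2 arrays. With each dye order on 1 array these cannot be told apart. The SD between the arrays, where given for a probe, is the same gap on another scale. An order that followed the dye means only that the pool in the same dye was ahead on both arrays. No detected OXPHOS probe had an LO part past the fold limit used here, log2 0.32 in either direction (0 of 54), where 2.35% of the 15371 detected probes of the array did. The nearest was Ndufs1, with 0.3205 against a limit that is 0.3219 with more digits. The share past the limit was lower among bright probes. Of the 3571 probes with a mean signal of at least 1000, 0.056% passed, and 40 of the 54 members were among these 3571.

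The tissue was checked with markers of blood and muscle cells that the array names. Of the red cell list, 3 of 8 genes could be named and all 4 of their probes were detected, and so were 4 of 4 platelet probes, 4 of 5 neutrophil probes, 5 of 6 T cell probes (Cd4 in no channel) and the 1 B cell probe. Of 12 heart and skeletal muscle probes, 2 were detected (that of Mb, for myoglobin, and 1 of cardiac actin, Actc1). The probes of Myh6, Myl2, Myl3 and Nppa were above background in no channel. The others passed in some channels, those of Tnnt3 and another probe of Actc1 in 3, Myh7 and Tnnt2 in 2, and Tnni3 and Ckm in 1. The summed signal of the red cell markers moved with the dye, as did Alas2 and Hbb, while both Slc4a1 probes had dye parts below 0. The sum was 1884960 in the LO pool and 1259410 in the control pool on array 1, and 1071770 and 1730130 on array 2, so that the pool in Cy5 was the brighter one both times. The median LO part of the detected probes was -0.067 for red cells, 0.023 for platelets, 0.11 for neutrophils, 0.067 for T cells, 0.10 for the B cell probe and -0.052 for muscle, and 0 of these probes had a p under 0.01 from the scanner software on both arrays towards the same pool.

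**Figure D1:**
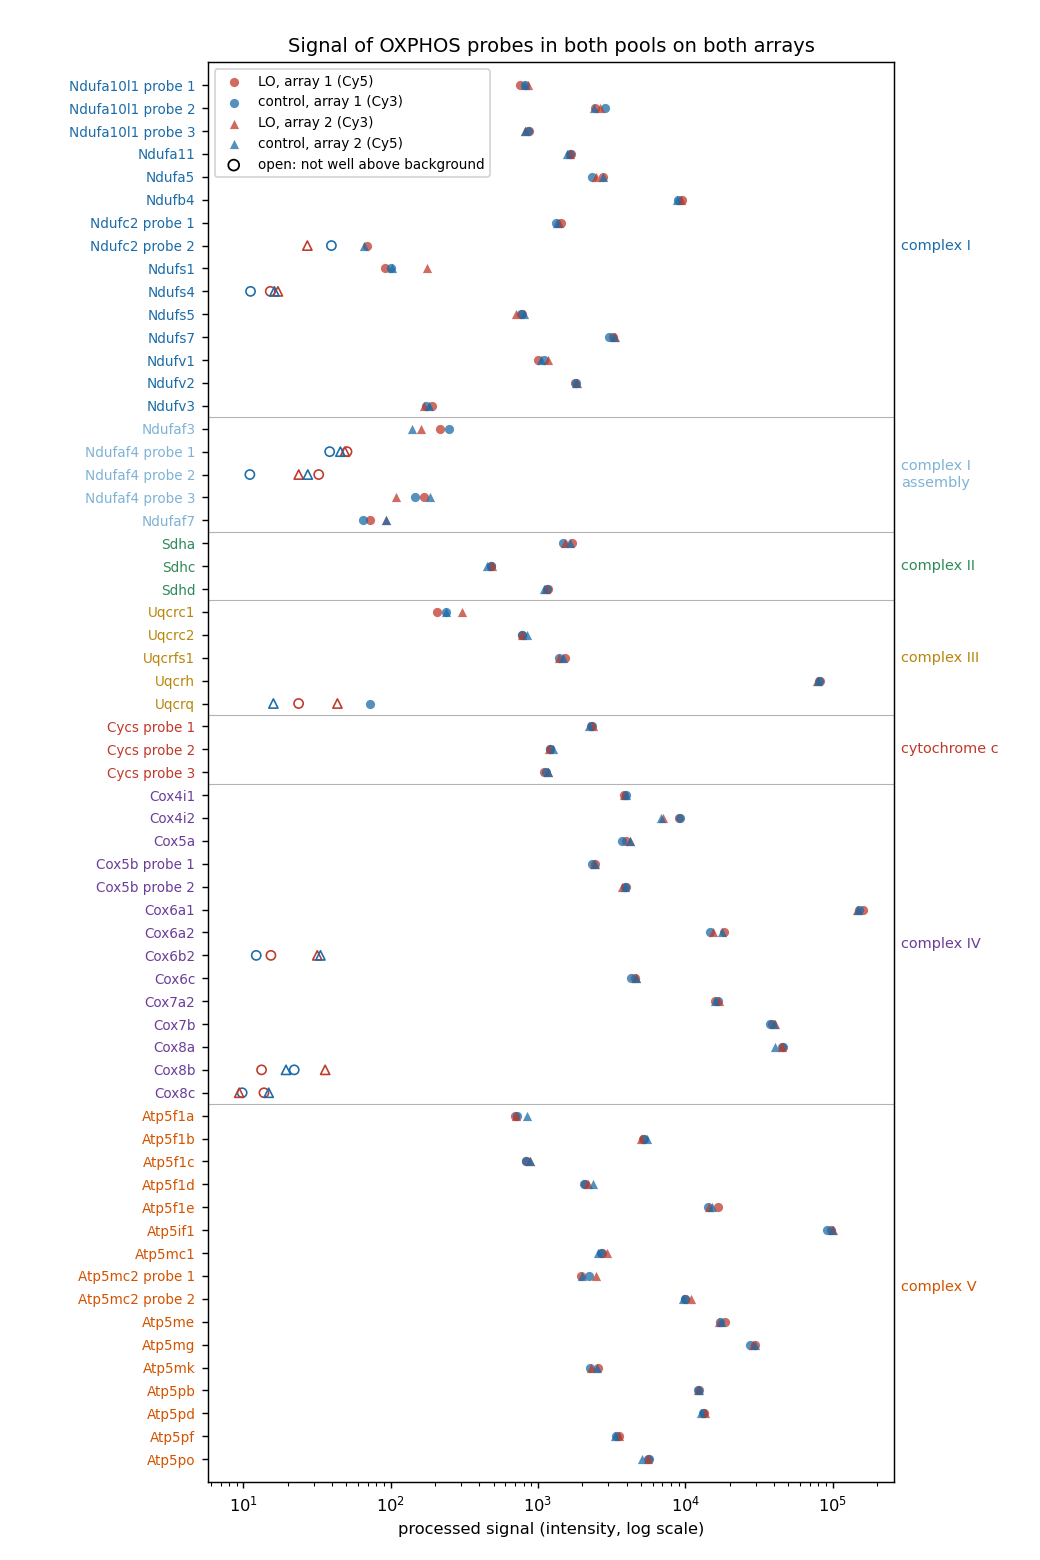
Processed signal (log axis) of 61 of the 62 OXPHOS probes, ordered by complex, in the LO pool (red) and the control pool (blue) on array 1 (circles) and array 2 (triangles), with open symbols where the probe was not well above background. The 4 symbols of a bright probe nearly coincide, and 8 probes have at least 1 open symbol.

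Complex I, the entry point of electrons from NADH, was represented by 16 probes of 13 genes, of which 14 probes were detected, with signals from 91.2 to 9520.1. The flavoprotein subunit Ndufv1, which binds NADH, gave 1005 in the LO pool and 1095 in the control pool on array 1, and 1171 and 1049 on array 2. Ndufv2, an iron-sulfur subunit beside it, gave 1781 and 1814 on array 1 and 1838 and 1803 on array 2. For both genes the pool in Cy3 was the brighter one on both arrays. Ndufb4, an accessory subunit of the membrane arm, read nearly the same on both arrays, 9520.1 in the LO pool and 8885 in the control pool on array 1, and 9419 and 8763 on array 2, with log2 LO/control ratios of 0.10 and 0.10 for arrays 1 and 2. Ndufs7, which carries the last iron-sulfur cluster before ubiquinone, gave 3235 and 3019.8 on array 1 and 3322 and 3291 on array 2. Its log2 ratios of 0.10 and 0.013 were both above 0 and small. The accessory subunits Ndufa5 (0.25 and -0.14) and Ndufv3 (0.15 and -0.11) had ratios that point in opposite directions.

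Ndufs1, the largest iron-sulfur subunit of complex I, had a dim probe and was the member of that complex farthest from equal pools. Its signal was 91.2 in the LO pool and 100.3 in the control pool on array 1, and 175 and 102 on array 2. Thus 3 of its 4 channels lay close together, and the LO pool on array 2 stood above them. Its log2 ratios were -0.14 and 0.78, with a mean of 0.32 and an SD of 0.65 between the arrays, and the Feature Extraction p, which is computed by the scanner software from an error model of the spot and compares the pools on 1 array, was 0.702 and 0.00837. Ndufs5, an accessory subunit, had ratios of 0.020 and -0.19. Ndufs4, an accessory subunit whose loss causes Leigh syndrome, was above background in no channel. One probe of the accessory subunit Ndufc2 was detected, with 1434 and 1324 on array 1 and 1387 and 1355 on array 2 in LO and control, while its second probe passed in 2 channels only, those in Cy5 (68.6 in the LO pool on array 1 and 66.4 in the control pool on array 2).

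Of the 3 assembly factors of complex I, Ndufaf3 and Ndufaf4 act together on an early part of the enzyme, and Ndufaf7 is a methyltransferase. Their 3 detected probes were dim, with signals from 64.5 to 247. Ndufaf4 had 1 detected probe of 3, with 168 in the LO pool and 147 in the control pool on array 1, and 109 and 185 on array 2. The pool in Cy5 was the brighter one on both arrays, and the log2 ratios of 0.19 and -0.77 gave a mean of -0.29 with an SD of 0.68 and a p of 0.47 and 0.00602. Ndufaf3 gave 218 and 247 on array 1 and 161 and 140.2 on array 2. Both pools of Ndufaf3 were dimmer on array 2, with a log2 signal difference (array 2 less array 1) of -0.43 for LO and -0.82 for control, and its LO part was 0.0086. Ndufaf7 gave 72.9 and 64.5 on array 1 and 92.2 and 92.3 on array 2. Its log2 ratios were 0.18 and -0.00044, with a Feature Extraction p of 0.663 on array 1.

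Complex II oxidises succinate and has no part in proton pumping. All 3 of its probes were detected, and all 3 had an LO part above 0 with the LOWESS of the authors, of which Sdha and Sdhd turned below 0 with median centring (-0.076 and -0.052), where all probes shifted. Sdha, the flavoprotein with the active site, gave 1696 in the LO pool and 1487 in the control pool on array 1, and 1525 and 1637 on array 2, so that its order of pools followed the dye. The membrane anchors Sdhc and Sdhd had the LO pool ahead on both arrays, with log2 ratios of 0.0061 and 0.12 for Sdhc and 0.038 and 0.042 for Sdhd. Sdhd gave 1178 and 1147 on array 1 and 1128 and 1096 on array 2, and the pools lay within a few percent of each other.

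Of complex III, 4 of 5 probes were detected. Uqcrh, the hinge protein that touches cytochrome c1, was bright in every channel, at 82741 in the LO pool and 80523 in the control pool on array 1, and 78576 and 79891 on array 2. The Rieske iron-sulfur protein Uqcrfs1 gave 1525 and 1398 on array 1 and 1384 and 1472 on array 2, and the core subunit Uqcrc2 gave 784 and 779 on array 1 and 777 and 836 on array 2. None of these 3 kept the same pool ahead on both arrays. Uqcrc1, the other core subunit, with a dim probe, gave 206 in the LO pool and 236 in the control pool on array 1, and 304 and 238 on array 2, with log2 ratios of -0.20 and 0.35. The probe of Uqcrq, a small subunit of the membrane part, was above background in 1 channel, the control pool of array 1 (72.1), and held the only p under 0.01 on array 1 among the 62 probes (0.00677). On array 2 its order of pools was turned (43.5 in the LO pool and 16.0 in the control pool, with a p of 0.111). With the LO pool dim on both arrays only a limit could be set, which came out under 1, and no fold is reported.

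Cytochrome c (Cycs), the small carrier between complexes III and IV, had 3 probes, all detected. In LO and control they gave 2283 and 2319 on array 1 and 2365 and 2212 on array 2 for the first, 1211 and 1198 on array 1 and 1194 and 1268 on array 2 for the second and 1098 and 1126 on array 1 and 1167 and 1167 on array 2 for the third. Their LO parts of 0.037, -0.036 and -0.018 lay on both sides of 0, although the probes report the same gene. Genes of this kind have many processed copies in the genome, and RefSeq lists 108 pseudogenes under the names of the rule, whose part in the signals was not tested.

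Complex IV, where oxygen is reduced, had 11 of 14 probes detected, with signals from 2340 to 161351. Several of its subunits exist as a general and a tissue-restricted form, and the array carried probes for both of some of them. The general form Cox6a1 gave 161351 in the LO pool and 151527 in the control pool on array 1, and 146430.0 and 148193 on array 2. Cox6a2, the heart and muscle form, was also bright, at 18276 in the LO pool and 14767 in the control pool on array 1, and 15357 and 17728 on array 2. Its order followed the dye, with log2 ratios of 0.31 and -0.21, a mean of 0.050 and a dye part of 0.26, the farthest from 0 among the members with a mean signal of at least 1000. The summed signal of the muscle list stayed between 3091 and 3163 in the 4 channels, and its part in the Cox6a2 signal was not tested.

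For the general form Cox4i1 the LO pool was the lower one each time, at 3862 in the LO pool and 3964 in the control pool on array 1, and 3811 and 3928 on array 2. Its log2 ratios were -0.038 and -0.043. Cox4i2, the form known from lung and from low oxygen, gave 9049 and 9204 on array 1 and 7028 and 6832 on array 2. Both pools of Cox4i2 were dimmer on array 2, with a log2 signal difference of -0.36 for LO and -0.43 for control, which left the ratio near 0 on both arrays (-0.025 and 0.041). That gap between arrays was the farthest from 0 for a pool among the members with a mean signal of at least 1000. Cox8a, the general form of another subunit, gave 45449.5 and 45847 on array 1 and 45201 and 40393 on array 2, while Cox8b (heart and muscle), Cox8c and Cox6b2 (testis) were above background in no channel. Cox7b had the LO pool slightly ahead on both arrays (38745 and 37727 on array 1 and 40562 and 39749 on array 2), as had Cox5a (3931 and 3723 on array 1 and 4233 and 4183 on array 2) and Cox6c (4585 and 4268 on array 1 and 4648 and 4636 on array 2). Cox7a2, the general form of a further subunit, gave 15903 and 16739 on array 1 and 16922 and 15882 on array 2, with the pool in Cy3 ahead each time. The 2 probes of Cox5b had mean log2 ratios of 0.013 and -0.018, on both sides of 0, and a dye part of 0.040 each.

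All 16 probes of the 15 complex V genes were detected, from 704 to 100401. The enzyme has a soluble head (F1) that makes ATP, a ring in the membrane that turns as protons pass, and a stalk that holds the head still. In the head, the catalytic subunit Atp5f1b gave 5189 in the LO pool and 5268 in the control pool on array 1, and 5006 and 5477 on array 2, and its partner Atp5f1a gave 704 and 719 on array 1 and 709 and 849 on array 2. Both had the LO pool lower on both arrays, with log2 ratios of -0.022 and -0.13 for Atp5f1b and -0.032 and -0.26 for Atp5f1a. With median centring their LO parts were -0.19 and -0.23, where the median of all detected probes was itself -0.074. Normexp with loess gave -0.086 and -0.12, against 0.00053 for all. The central stalk subunit Atp5f1c also had the LO pool lower on both arrays, by less (-0.016 and -0.0068). Atp5f1d and Atp5f1e, the other subunits at the foot of the head, turned with the array (0.017 and -0.12 for Atp5f1d, 0.22 and -0.074 for Atp5f1e).

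For the ring subunits the LO part was above 0, except with median centring, which gave Atp5mc1 -0.0034 and the probes of Atp5mc2 0.0081 and -0.059. These values lay above the median of all detected probes with that centring, -0.074. Atp5mc1, which encodes the ring protein together with Atp5mc2, gave 2709 in the LO pool and 2675 in the control pool on array 1, and 2939 and 2556 on array 2, with log2 ratios of 0.018 and 0.20. Atp5mc2 had 2 probes, with 1969 and 2228 on array 1 and 2484 and 1995 on array 2 for one and 9995 and 9996 on array 1 and 10982 and 9682 on array 2 for the other. The LO pool was ahead on array 2 for both of them and not on array 1, and the mean log2 ratios were 0.069 and 0.091. These genes code for the same mature protein, and whether their probes share signal was not tested.

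In the peripheral stalk, Atp5pd (13428 and 13205 on array 1 and 13677 and 12857 on array 2) and Atp5pf (3534 and 3410.2 on array 1 and 3537 and 3326 on array 2) had the LO pool ahead on both arrays. Atp5pb (0.019 and -0.016) and Atp5po (-0.017 and 0.12), which joins the stalk to the head, had log2 ratios that changed sign. Atp5if1, the inhibitor that stops the enzyme from burning ATP when the proton gradient fails, was among the bright members, at 97709.8 in the LO pool and 91856 in the control pool on array 1, and 100401 and 98739.9 on array 2, and its log2 ratios were 0.089 and 0.024. The small membrane subunits Atp5me, Atp5mg and Atp5mk had the pool in Cy5 ahead on both arrays, with log2 ratios of 0.12 and -0.044 for Atp5me, 0.11 and -0.038 for Atp5mg and 0.18 and -0.12 for Atp5mk.

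**Figure D2:**
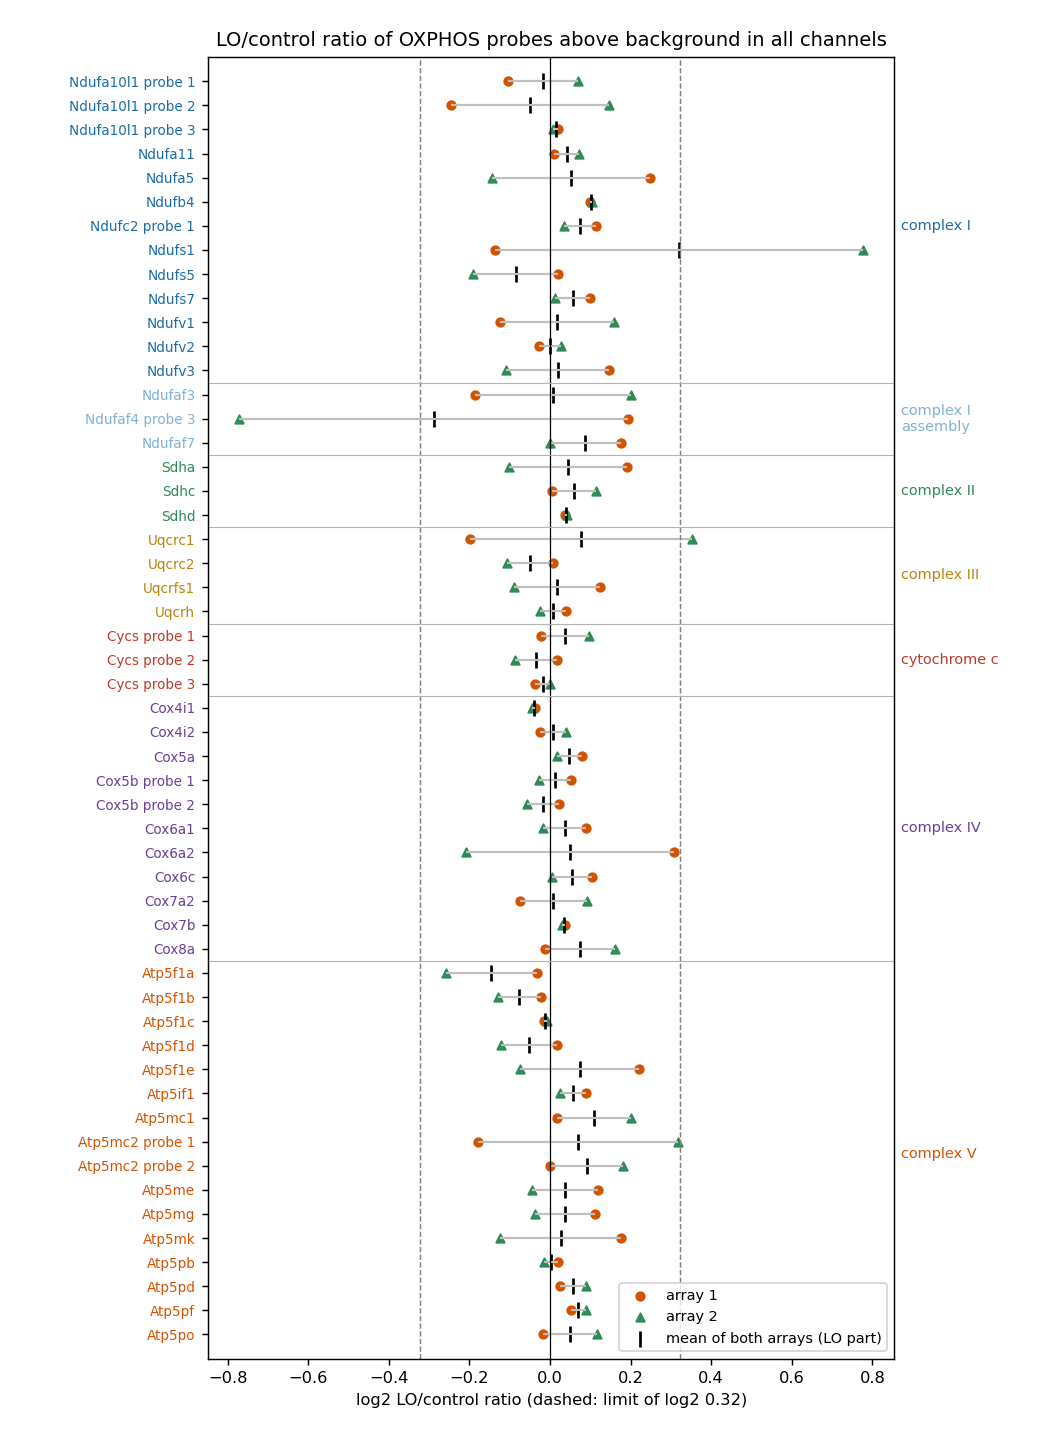
Log2 LO/control ratio of 53 of the 54 detected OXPHOS probes by complex, on array 1 (circles), on array 2 (triangles) and as the mean of both (bars), with dashed lines at the limit of log2 0.32 either way. No bar passes the dashed lines, and the ends of most lines lie on opposite sides of 0.

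Over all complexes the LO parts of the detected members kept to a narrow range. Ndufs1, at 0.32, and Ndufaf4, at -0.29, were the outermost, and both were dim. For the 40 members with a mean signal of at least 1000 the LO parts ran from -0.076 to 0.11, with an SD of 0.043 between probes, against 0.052 over the 3571 such probes of the array. For the 14 detected members with a lower mean signal the SD was 0.135, close to the 0.138 over all 11800 such probes. Over the 54, the SD was 0.077, against 0.12 over all detected probes, of which a smaller share was bright.

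The study's methods set a limit of 0.01 for the Feature Extraction p and ask for a change towards the same pool on both arrays, without stating whether the limit holds for both. Read here as a p under 0.01 on both arrays, 0 of the 62 probes were called towards the same RNA pool, beside 0.0219% of all probes (9 of 41009). The study lists many more changed genes than these 9 probes, so this reading does not reproduce its selection. The count of 0 holds for this reading only, and with so small a share of all probes called it says little about the members. Towards the same dye there were 0 of the 62, beside 2.64% of all probes (1082 of 41009). This p compares 1 pool with another on 1 array, not LO with control animals, and is not adjusted. On single arrays, 1 member passed it on array 1 (Uqcrq) and 2 on array 2 (Ndufs1 and Ndufaf4), where 5.95% and 6.29% of all probes did, and the ratios of each of these 3 pointed to opposite pools on the arrays. At a p under 0.05, 0 detected members passed on array 1 and the same 2 on array 2. The share of all detected probes at that limit was not counted, so these counts have nothing to be set against.

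The dye part passed log2 0.32 in 2 of the 54 members, Ndufs1 at -0.46 and Ndufaf4 at 0.48, where 23% of all detected probes passed. Among probes with a mean signal of at least 1000, 0 of the 40 members passed, beside 1.85% of all 3571. The SD of the dye part was 0.14 over the members and 0.30 over all detected probes. Among those with a mean signal of at least 1000 it was 0.098 and 0.13. The dye part was larger in size than the LO part in 36 of the 54 members and in 75.6% of all detected probes. Across these probes, which are not independent replicates, the ratios of the 2 arrays had a Pearson r of -0.60 for the members and -0.70 for all detected probes, so that a probe ahead in one pool on array 1 tended to be behind on array 2. The direction of every ratio given here rests on the dyes that the labels and the methods state. A wrong dye label on 1 array would exchange the LO part and the dye part, and whether the labels are right was not tested. Red cell probes, by comparison, had dye parts of 1.11 (Alas2, the enzyme that starts haem synthesis in red cells) and 0.55 (Hbb, a haemoglobin chain), with LO parts of -0.088 and -0.079, and their part in the OXPHOS values was not tested.

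**Figure D3:**
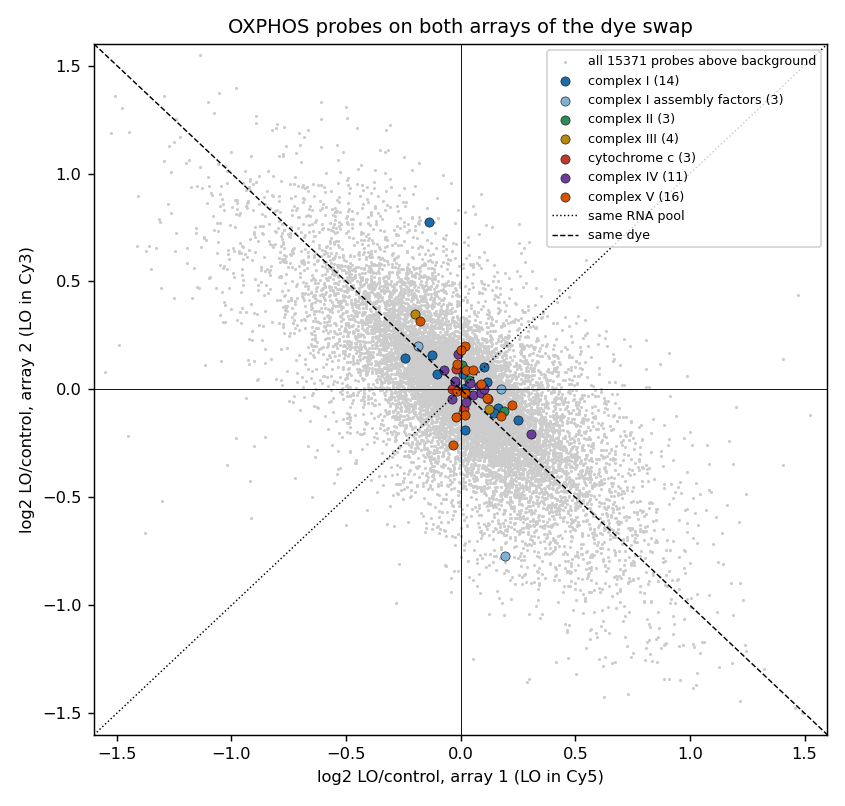
Log2 LO/control ratio on array 1 (x axis, LO in Cy5) against array 2 (y axis, LO in Cy3) for all 15371 detected probes (grey, 4 of them beyond the axes) and the 54 OXPHOS probes (coloured by complex). Most OXPHOS probes lie close to the origin, and the outlying ones lie nearer the dashed line of probes that follow the dye than the dotted line of probes that follow the pool.

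The LO parts of the OXPHOS probes lay slightly above 0 with the normalization of the authors. Their median was 0.037, which is 1.03-fold, against -0.0026 for all detected probes, and 41 of the 54 (75.9%) were above 0, beside 48.7% of all detected probes. The median log2 ratio was 0.019 on array 1 and 0.0062 on array 2, an SD of 0.0094 between the arrays. This small shift depends on the scaling. Background-subtracted signals were also centred on the median of each array, with no LOWESS step. The median of all detected probes then moved to -0.074 and that of the members to -0.077. Above 0 were 7 of the 54 members and 26.3% of all detected probes. Relative to the median of all probes, 24 of the 54 were then above it, as against 41 of the 54 with the LOWESS of the authors. Normexp background correction with loess gave a median of 0.024, against 0.00053 for all detected probes. Above 0 were 37 of the 54 members and 50.4% of all detected probes.

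**Figure D4:**
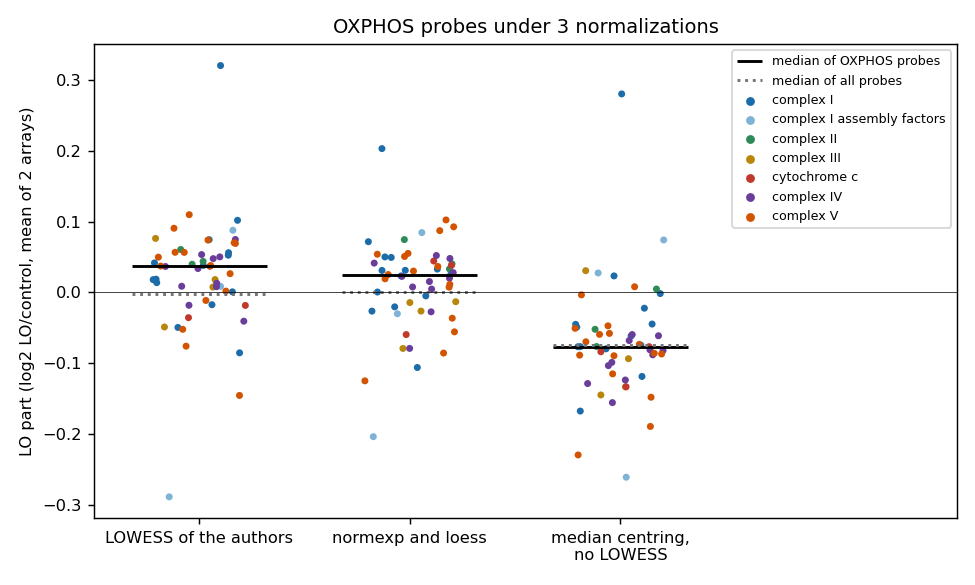
LO part (log2 LO/control, mean of both arrays) of the 54 OXPHOS probes under 3 normalizations, coloured by complex and spread sideways for legibility, with the median of these probes (solid) and of all detected probes (dotted). The members lie above the median of all probes under the LOWESS of the authors and under normexp with loess, and astride it under median centring, where their sign turns.

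With the LOWESS of the authors the 2 arrays pointed the same way in 18 of the 54 members. The LO pool was ahead on both in 14 (11.7% of all detected probes were) and behind on both in 4 (12.7% of all). The 14 were probes of Ndufa10l1, Ndufa11, Ndufb4, Ndufc2, Ndufs7, Sdhc, Sdhd, Cox5a, Cox6c, Cox7b, Atp5if1, Atp5mc1, Atp5pd and Atp5pf, with LO parts from 0.014 to 0.11. The 4 were those of Cox4i1, Atp5f1a, Atp5f1b and Atp5f1c, with LO parts from -0.15 to -0.011. The Atp5f1 genes among them encode subunits of F1 of ATP synthase. The other F1 subunits, Atp5f1d and Atp5f1e, changed sign between the arrays, with LO parts of -0.052 and 0.074. All of these shifts are small, and with 1 pool per group none can be set against the spread between animals. By complex, the median LO part was 0.028 for complex I, 0.0086 for its assembly factors, 0.044 for complex II, 0.013 for complex III, -0.018 for cytochrome c, 0.034 for complex IV and 0.044 for complex V. Each rests on 3 to 16 probes. With median centring, where the median of all detected probes was -0.074, 6 of these 7 medians were below 0. The exception was that of the assembly factors at 0.028. Normexp with loess gave -0.020 for complex III and 0.038 for cytochrome c.

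**Figure D5:**
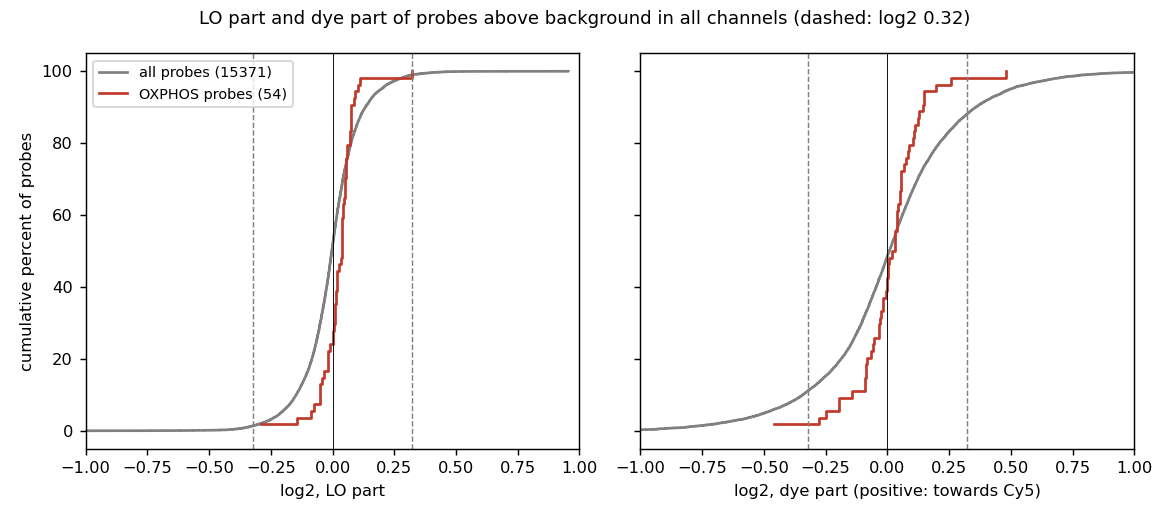
Cumulative percent of probes against the LO part (left) and the dye part (right) on the log2 scale, for the 54 OXPHOS probes (red) and all 15371 detected probes (grey), with dashed lines at the limit of log2 0.32 either way and both axes drawn from -1 to 1. The red curves are steeper in both panels. Of the 54 members 40 have a mean signal of at least 1000, against 3571 of all 15371 probes. The offset of the red curve right of 0 on the left holds for the LOWESS of the authors and turns under median centring.

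Genes with more than 1 probe show how far probes with the same gene symbol differ. Whether such probes read the same transcript was not tested. Ndufa10l1, a gene like the accessory subunit Ndufa10, had 3 detected probes, with LO parts from -0.049 to 0.014 and dye parts from -0.20 to 0.0053. One of them gave 2422 in the LO pool and 2870.0 in the control pool on array 1, and 2650.4 and 2395 on array 2, and another 874 and 862 on array 1 and 819 and 815 on array 2. The former had the pool in Cy3 ahead on both arrays, and the latter the LO pool slightly ahead on both, although they report the same gene.

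Other genes of the pathway were read from lists that were put together with these results known. Of 31 further assembly factors, 8 were named on the array, with 6 of 10 probes detected, and 0 passed the p threshold on both arrays. Their LO parts had a median of -0.032, and 1 of the 6 was above 0. Cox17, which carries copper to complex IV, gave 2953 and 2937 on array 1 and 2869.9 and 2978 on array 2 in LO and control, and Surf1, needed for the haem of complex IV, gave 764 and 753 on array 1 and 751 and 776 on array 2. Both differed little between pools. Lrpprc, which keeps mitochondrial messenger RNA stable, had a detected probe at 216 and 246 on array 1 and 243 and 239 on array 2 and another that was above background in no channel. Of 12 regulators of mitochondrial gene expression, 7 were named on the array and 3 of their 8 probes were detected, with 0 past the threshold. Tfam, which packs and transcribes mitochondrial DNA, gave 563 in the LO pool and 465 in the control pool on array 1, and 535 and 592 on array 2, log2 ratios of 0.28 and -0.14 that followed the dye. Yy1, the factor of one motif above, had ratios of -0.16 and 0.43, and Tfb2m, a mitochondrial transcription factor, of -0.11 and -0.33. Ppargc1a, the coactivator that raises mitochondrial content, was above background in no channel.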

How the data were processed

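Pooled whole-blood RNA of LO and control rats was measured on 2 Agilent 4 × 44-K rat arrays in a dye swap. The authors scanned the arrays and ran Agilent Feature Extraction 11.0.1.1, which subtracted the background and normalized the dyes by LOWESS. The deposited scanner output holds, for each feature, the processed and the background signals as intensity, a log10 ratio of Cy5 over Cy3 and its p-value from the software's error model. A further deposited table without a stated scale equalled the log10 of the ratio of processed signals, within 1.66e-06 on the log2 scale.

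Ratios were turned to LO over control and to log2. Control spots and features flagged as non-uniform or population outliers were left out, and the spots of a probe were averaged. Symbols came from a RefSeq table of GRCr8, used for names only, with promoter windows from RefSeq. The study's methods set a p limit of 0.01 and ask for the same direction on both arrays. Here the p had to be under 0.01 on both arrays, which is a reading of that rule. With 1 pool per group no further test was made, and the arrays count as 1 replicate. A probe was detected when well above background in all 4 channels. Where a pool was dim on both arrays, only a limit could be given. Precision is limited by the number of arrays.

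The members, the named genes and the lists (assembly factors, regulators of mitochondrial gene expression, markers of red cells, platelets, neutrophils, T cells, B cells and muscle) were chosen with earlier results of these data known. By the rule for named genes, any called member, the detected members with the highest and lowest LO and dye parts of each complex, the core subunits, the subunits with tissue forms, genes with more than 1 probe and those above background in no channel were named. 1 member is counted but not reported by name here. Others were named after their values were seen. Alternatives were median centring of background-subtracted signals, normexp (offset 50) with loess, the deposited table, flagged features kept, other filters on dim probes, other p and fold limits, means per gene and each array alone. The computations were tested on simulated data and used Python 3.11.15, numpy 2.4.6, pandas 2.3.3, matplotlib 3.10.9, R 4.3.3 and limma 3.58.1.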

Additional observations from a re-analysis of the deposited data

How the results depend on the processing

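No OXPHOS probe was called towards the same RNA pool or the same dye under any p limit or filter on dim probes tried. The share of all probes was counted only for a Feature Extraction p under 0.01 (0.0219% towards the same pool, 2.64% towards the same dye). With so small a share for the pool, a count of 0 says little about the members. At the other settings the count has no share beside it. Detected were 54 probes whichever array set the rule. The median LO part of 0.037 was -0.077 with median centring (median of all detected probes -0.074) and 0.024 with normexp and loess, and 0.0062 to 0.019 when either array was left out. The number above 0 was 7 with median centring (26.3% of all detected probes). It was 29 with array 2 alone (48.2%) and 35 with array 1 alone (50.8%). The number past log2 0.32 in the LO part, 0 as reported, was 1 over all 62 probes, dim ones included (22.7% of all probes), 0 with array 1 alone (24.5% of all detected probes) and 3 with array 2 alone (25.9%). The dye part passed log2 0.32 in 46 members with median centring (63.0% of all detected probes), where its median was 0.50, and in 6 over all 62 probes (48.1% of all probes). With normexp and loess 0 members passed (4.46% of all detected probes). Of those with a mean signal of at least 1000, 0 passed too (1.85% of all such probes). With a 1.5-fold limit 0 members passed, and the share over all probes was not counted. The SD of the LO part was 0.064 with normexp and loess, 0.12 over all 62 probes, 0.043 among the members with a mean signal of at least 1000, and 0.11 to 0.19 with either array left out. The filter on mean signal was chosen after seeing the data. The cause of these moves was not tested, except that dim probes and single arrays enter by construction. The other 52 values stayed within the limits set for them. Naming genes by a gene-name column was not run, as the scanner output used here holds none. No paired analysis was possible because each group is 1 pool and the arrays carry the same pools. With 1 pool per group, neither the spread between rats nor a difference smaller than the gap between the arrays could be measured, and the ratios of dim probes varied most between the arrays, with an SD of 2.16 for Uqcrq and 1.47 for the second probe of Ndufc2.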
